A study of Mus musculus with 29 samples.

Results

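The genes described here are 10 that handle calcium inside the cell: the calstabin genes Fkbp1b and Fkbp1a, the ryanodine receptor genes Ryr1, Ryr2 and Ryr3, the inositol trisphosphate receptor gene Itpr1, the store pump gene Atp2a2, the plasma membrane pump genes Atp2b1 and Atp2b2, and the exchanger gene Slc8a1. They were matched by symbol among the 31002 genes of a table of hippocampal RNA sequencing, and all 10 were found. Fkbp1b and Atp2b1 were chosen by their TPM, for lower levels in the 22-month hAβ-KI group, so that their values at that age are a description, with no test. The other 8 were taken as their partners in the same machinery. Of the 15554 genes with a level of at least 1 TPM in at least 2 mice, which were the genes tested, 9 were members, and Ryr1 stayed below that level.

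Each library came from the hippocampus of 1 mouse, 29 mice in all. Young mice, aged 2 months, numbered 7 in the WT and 8 in the hAβ-KI group. Old mice, aged 22 months, numbered 8 and 6. The hAβ-KI mice were homozygous for an App allele in which 3 amino acids of the Aβ sequence are changed to the human ones at the mouse locus, with loxP sites around exon 14 and no Cre in these groups, and none of the groups was treated. By the labels the WT strain is C57BL/6N and the knock-in strain C57BL/6NJ, while the study's methods name the knock-in strain B6(SJL)-App tm1.1Aduci/J and the WT strain C57BL/6NTac, so that genotype and substrain cannot be told apart. The old WT group had 6 males and 2 females, and the old hAβ-KI group had 3 of each.

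Ryanodine receptors and inositol trisphosphate receptors are channels in the membrane of the endoplasmic reticulum, the calcium store of the neuron, and open to let calcium into the cytosol. Calstabins are small prolyl isomerases that sit on the ryanodine receptor and hold its closed state, and in hippocampal neurons the loss of the Fkbp1b product is known to go with larger calcium-driven afterhyperpolarizations. The SERCA pump encoded by Atp2a2 returns calcium to the store, whereas plasma membrane calcium pumps and the sodium-calcium exchanger carry it out of the cell.

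The unit throughout is TPM, a transcript abundance scaled by transcript length and by the total of the library. Levels may be compared between genes, but only roughly where transcript lengths differ much, since libraries differed in the balance of long and short transcripts. Differences are on the log2(TPM + 1) scale with their standard error (SE), from a limma model of the 4 groups, and a gene passed the test at a Benjamini-Hochberg adjusted p below 0.1 with a p below 0.05. Markers of hippocampal neuron types (Prox1, Wfs1, Neurod6, Zbtb20, C1ql2 and Spink8) were at a group median of at least 1 TPM in every group. Their summed level was 446.37 to 555.83 TPM in every mouse except mouse 2 of the old hAβ-KI group, in which it was 262.53 TPM. That mouse had 46.44 TPM of Neurod6, against 122.33 to 170.42 TPM in the other 28 mice, and a summed level of oligodendrocyte markers of 2214.96 TPM, against 3279.21 to 5086.84 TPM in the others. Of the hippocampal markers only Wfs1 went the other way, with 110.31 TPM against 61.25 to 107.28 TPM in the others. Its summed general neuron markers, 2576.36 TPM, lay within the 2475.91 to 2917.29 TPM of the others. Several results that involve the old hAβ-KI group are therefore also given without it, while the correlations within groups include it. Choroid plexus markers, which mark tissue beside the hippocampus, ranged from 37.47 to 17980 TPM in sum, and their ranges overlapped between the 4 groups. Index numbers in the library names follow the groups block by block, and the labels do not say what they stand for, so that anything that went with them cannot be told apart from the groups. In whole tissue, fewer cells of a type and less RNA per cell cannot be told apart either.

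Fkbp1b and Fkbp1a encode 2 close relatives, and their transcripts differ enough to be counted apart. The coding sequences are shown because the finding on Fkbp1b rests on reads that must be told from the more abundant Fkbp1a. Each coding sequence has 327 bases with its stop codon, in 4 exons, and the first 300 are printed, with capitals at the 74 positions of this stretch where they differ. They are from GENCODE M21 transcripts on GRCm38, read on the coding strand. Fkbp1a lies on the plus strand of chromosome 2 and Fkbp1b on the minus strand of chromosome 12.
Fkbp1a: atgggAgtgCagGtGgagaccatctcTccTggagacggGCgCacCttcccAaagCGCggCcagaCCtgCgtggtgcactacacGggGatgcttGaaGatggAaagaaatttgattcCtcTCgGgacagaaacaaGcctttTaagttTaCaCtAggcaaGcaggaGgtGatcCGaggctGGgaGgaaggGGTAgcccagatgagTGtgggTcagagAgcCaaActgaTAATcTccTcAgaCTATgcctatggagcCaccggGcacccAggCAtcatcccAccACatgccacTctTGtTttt
Fkbp1b: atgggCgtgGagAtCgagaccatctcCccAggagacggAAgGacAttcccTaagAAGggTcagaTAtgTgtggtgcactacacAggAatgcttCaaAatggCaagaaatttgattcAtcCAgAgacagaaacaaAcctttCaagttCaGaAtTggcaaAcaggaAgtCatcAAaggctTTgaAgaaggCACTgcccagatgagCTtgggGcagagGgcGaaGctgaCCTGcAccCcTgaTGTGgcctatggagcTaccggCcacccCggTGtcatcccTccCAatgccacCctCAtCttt
Over the whole coding sequence the alignment has no gap, with 82 differences, and 74.9% of the positions are identical. Most differences fall on the last base of a codon, 53 of the 82, while 19 fall on the first base and 10 on the middle one. The longest run of identical bases is 14, which is shorter than the 43 bases of a read. Of the 982 stretches of 43 bases in the Fkbp1b transcripts, 0 were found in the transcripts of another gene.

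Fkbp1b was lower in old hAβ-KI mice than in any other group, and the 6 mice of that group were close together. Fkbp1b (ENSMUSG00000020635.7; chr12:4833174-4841591, minus strand, GRCm38) encodes the calstabin bound mainly by the cardiac-type ryanodine receptor. In young WT mice its level was 78.98, 84.19, 86.72, 87.28, 89.57, 96.59 and 99.72 TPM. Young hAβ-KI mice ranged from 69.07 to 96.93 TPM with a median of 85.56 TPM. Old WT mice ranged from 67.91 to 97.53 TPM with a median of 88.53 TPM. The 6 old hAβ-KI mice had 62.51, 63.98, 65.35, 65.85, 68.2 and 69.86 TPM. Of these, 4 lay below every old WT mouse, and 7 of the 8 old WT mice lay above every old hAβ-KI mouse. The groups still overlapped, since the lowest old WT mouse was below the highest old hAβ-KI mice.

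The group means of Fkbp1b were 89.0 ± 7.12 TPM (SD, n = 7) in young WT, 85.4 ± 8.49 TPM (SD, n = 8) in young hAβ-KI, 85.25 ± 11.6 TPM (SD, n = 8) in old WT and 66.0 ± 2.70 TPM (SD, n = 6) in old hAβ-KI mice. The first 3 groups in this order differed by less than their spread. The old hAβ-KI mean was 22.6% below that of old WT mice and 22.8% below that of young hAβ-KI mice. On the log2 scale the difference between genotypes at 22 months was -0.35 (SE 0.08), with a 95% interval from -0.51 to -0.20. Since this contrast chose the gene, no test is given. Without mouse 2 of the old hAβ-KI group the difference was -0.34 (SE 0.08) and the group mean was 66.6 ± 2.35 TPM (SD, n = 5). Among old hAβ-KI mice the 3 females had 66.0 ± 2.11 TPM and the 3 males 65.9 ± 3.71 TPM, so that the sexes of this group were at like levels.

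At 2 months of age, in mice that the choice of genes did not use, Fkbp1b did not pass the test between genotypes. The difference was -0.06 (SE 0.07, limma, adjusted p = 0.960), with a 95% interval from -0.21 to 0.09. As a description, the difference with age was -0.07 (SE 0.07) in WT and -0.36 (SE 0.08) in hAβ-KI mice, and the difference between these was -0.29 (SE 0.11). Both age differences share mice with the contrast that chose the gene.

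**Figure D1:**
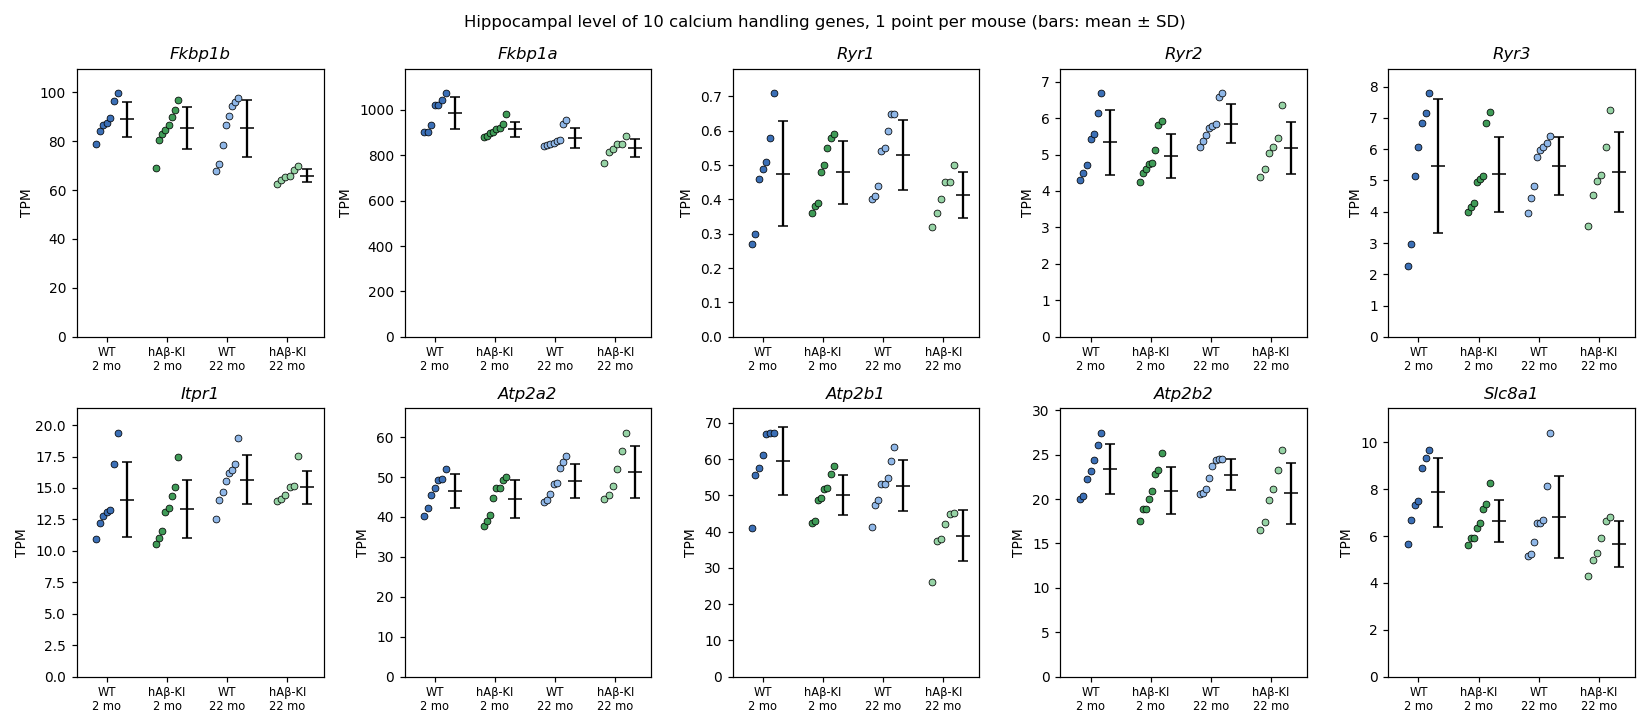
Level of each of the 10 genes in TPM (vertical axis, from 0) in each mouse, by genotype and age (horizontal axis), with 1 point per mouse and bars for the mean ± SD. The old hAβ-KI mice lie between 62.51 and 69.86 TPM for Fkbp1b, and the mean of Fkbp1a is lower in both old groups than in the young group of the same genotype.

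Fkbp1a fell with age in both genotypes. Fkbp1a (ENSMUSG00000032966.14; chr2:151542483-151561692, plus strand, GRCm38) encodes the ubiquitous calstabin, which is also the cellular receptor of FK506 and rapamycin. It was the most abundant of the 10 genes, with 902.76 to 1074.92 TPM in young WT (median 1019.97), 878.82 to 983.2 TPM in young hAβ-KI (median 908.635), 839.97 to 955.79 TPM in old WT (median 858.7) and 764.75 to 886.52 TPM in old hAβ-KI mice (median 838.94). Neighbouring groups overlapped throughout. The difference with age was -0.17 (SE 0.04, limma, adjusted p = 0.0185) in WT and -0.14 (SE 0.04, limma, adjusted p = 0.0518) in hAβ-KI mice. The latter did not pass without mouse 2 of the old hAβ-KI group (adjusted p = 0.115) or without mouse 2 of the young hAβ-KI group (adjusted p = 0.101). Between genotypes Fkbp1a did not pass at 2 months (-0.11, SE 0.04, adjusted p = 0.632) or at 22 months (-0.07, SE 0.04, adjusted p = 0.572). A share of 0.323% of its 43-base stretches was also found in the pseudogene Fkbp1a-ps1.

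Relative to Fkbp1a in the same mouse, Fkbp1b stood at 9.03% ± 0.499 (SD, n = 7) in young WT and 9.35% ± 1.00 (SD, n = 8) in young hAβ-KI mice, and at 9.72% ± 1.199 (SD, n = 8) in old WT and 7.93% ± 0.226 (SD, n = 6) in old hAβ-KI mice. The old hAβ-KI mice ranged from 7.69% to 8.24%, which overlapped the low ends of the ranges of young hAβ-KI mice (7.66% to 10.6%) and old WT mice (7.86% to 11.2%). This ratio uses the Fkbp1b values that chose the gene and is a description.

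Of the ryanodine receptors, Ryr2 and Ryr3 were at like levels and Ryr1 was near the bottom of the range. Ryr2 encodes the cardiac-type receptor, also the main one of the brain, Ryr3 a receptor known to be enriched in hippocampus, and Ryr1 the skeletal muscle type. Ryr2 (ENSMUSG00000021313.15; chr13:11553102-12106945, minus strand) had 5.33 ± 0.889 TPM in young WT, 4.96 ± 0.607 TPM in young hAβ-KI, 5.84 ± 0.532 TPM in old WT and 5.18 ± 0.706 TPM in old hAβ-KI mice (SD, n = 7, 8, 8 and 6). In old mice, 4 of 6 hAβ-KI mice lay below every WT mouse, and the difference did not pass the test (-0.15, SE 0.09, limma, adjusted p = 0.583). Ryr3 (ENSMUSG00000057378.14; chr2:112631355-113217096, minus strand) had 5.46 ± 2.13, 5.20 ± 1.205, 5.46 ± 0.917 and 5.265 ± 1.28 TPM in the same order. The wide spread of Ryr3 in young WT mice ran from 2.25 to 7.8 TPM. Its 95% interval between genotypes at 22 months, from -0.43 to 0.31, covers the estimate found for Fkbp1b. Reads of Ryr3 and of Aven on the opposite strand cannot be told apart over 4.83% of its exonic bases, because the libraries do not keep strand.

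Ryr1 (ENSMUSG00000030592.16; chr7:29003344-29125179, minus strand) was between 0.27 and 0.71 TPM in every mouse and was not tested. Together the 3 receptor genes summed to 11.3 ± 3.01, 10.6 ± 1.34, 11.8 ± 1.34 and 10.9 ± 1.90 TPM in young WT, young hAβ-KI, old WT and old hAβ-KI mice. Ryr2 made up 47.0% to 49.6% of that sum as group means, Ryr3 45.9% to 48.5% and Ryr1 3.84% to 4.54%. The shares of Ryr2 and Ryr3 differed between groups by less than the spread between mice. That of Ryr1 was 4.46% ± 0.526 (SD, n = 8) for old WT and 3.84% ± 0.481 (SD, n = 6) for old hAβ-KI mice, a difference that was not tested.

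Itpr1 (ENSMUSG00000030102.10; chr6:108213096-108551109, plus strand) encodes the main inositol trisphosphate receptor of neurons and was more abundant than the ryanodine receptors in sum. It had 14.1 ± 2.98 TPM in young WT, 13.3 ± 2.31 TPM in young hAβ-KI, 15.7 ± 1.97 TPM in old WT and 15.1 ± 1.32 TPM in old hAβ-KI mice (SD, n = 7, 8, 8 and 6). None of its contrasts passed the test, and the largest was 0.18 (SE 0.11, limma, adjusted p = 0.378) with age in hAβ-KI mice. Markers of Purkinje cells, in which Itpr1 is very abundant, summed to 6.39 TPM in mouse 2 of the old hAβ-KI group and to 1.04 to 4.22 TPM in the other mice. Pcp2 was at 0 to 2.89 TPM over all mice.

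Atp2a2 (ENSMUSG00000029467.15; chr5:122453513-122502225, minus strand), the gene of the SERCA pump that refills the store, had 46.6 ± 4.22 TPM in young WT, 44.5 ± 4.83 TPM in young hAβ-KI, 49.0 ± 4.37 TPM in old WT and 51.2 ± 6.55 TPM in old hAβ-KI mice (SD, n = 7, 8, 8 and 6). The difference with age in hAβ-KI mice was 0.20 (SE 0.08, limma, unadjusted p = 0.0164, adjusted p = 0.138) and did not pass. Without mouse 6 of the old hAβ-KI group it passed (adjusted p = 0.0815), and without mouse 2 the difference was 0.15 (SE 0.08, adjusted p = 0.293). In the old hAβ-KI group the 3 males ranged from 52.14 to 61.07 TPM and the 3 females from 44.48 to 47.69 TPM, while in old WT mice the sexes overlapped. The split in the former group was not tested, and its share over all genes was not counted.

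Atp2b1 had its lowest mean in old hAβ-KI mice, and its estimate between genotypes was below 0 at both ages. Atp2b1 (ENSMUSG00000019943.9; chr10:98914406-99026143, plus strand) encodes a plasma membrane pump found in most cells. Young WT mice had 41, 55.75, 57.51, 61.21, 66.85, 67.18 and 67.27 TPM. Young hAβ-KI mice ranged from 42.47 to 58.23 TPM with a median of 50.505 TPM, and old WT mice from 41.27 to 63.49 TPM with a median of 53.22 TPM. The 6 old hAβ-KI mice had 26.18, 37.35, 37.99, 41.99, 44.98 and 45.05 TPM. The lowest of these was mouse 2, whose hippocampal neuron type markers were low in sum. Of the old hAβ-KI mice, 3 lay below every old WT mouse, and 7 of 8 old WT mice lay above every old hAβ-KI mouse.

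The group means of Atp2b1 were 59.5 ± 9.46 TPM in young WT, 50.2 ± 5.58 TPM in young hAβ-KI, 52.7 ± 7.00 TPM in old WT and 38.9 ± 7.06 TPM in old hAβ-KI mice (SD, n = 7, 8, 8 and 6). The difference between genotypes at 22 months, which chose the gene, was -0.44 (SE 0.11), or 26.1% of the old WT mean. Without mouse 2 it was -0.33 (SE 0.10), and the group mean was 41.5 ± 3.69 TPM (SD, n = 5). At 2 months of age the difference was -0.23 (SE 0.11, limma, unadjusted p = 0.0402, adjusted p = 0.733) and did not pass, with a 95% interval from -0.45 to -0.01. With age the difference was -0.17 (SE 0.11) in WT and -0.37 (SE 0.11) in hAβ-KI mice, as a description, and without mouse 2 the latter was -0.27 (SE 0.10).

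Atp2b2 and Slc8a1 showed estimates of the same sign as Atp2b1 at both ages, and none passed the test. Atp2b2 (ENSMUSG00000030302.16; chr6:113743831-114042613, minus strand), which encodes a fast pump enriched in neurons, had 23.4 ± 2.80, 20.9 ± 2.64, 22.7 ± 1.75 and 20.6 ± 3.45 TPM in young WT, young hAβ-KI, old WT and old hAβ-KI mice. The difference between genotypes was -0.15 (SE 0.09, limma, adjusted p = 0.826) at 2 months and -0.14 (SE 0.09, adjusted p = 0.611) at 22 months. Without mouse 2 of the old hAβ-KI group the latter was -0.21 (SE 0.09, limma, adjusted p = 0.323). Slc8a1 (ENSMUSG00000054640.14; chr17:81373105-81738377, minus strand), the sodium-calcium exchanger known from heart, had 7.88 ± 1.48, 6.65 ± 0.894, 6.81 ± 1.74 and 5.665 ± 0.986 TPM in the same order. Its difference was -0.21 (SE 0.12, adjusted p = 0.827) at 2 months and -0.21 (SE 0.12, adjusted p = 0.586) at 22 months. In the old hAβ-KI group the 3 males had 21.18 to 25.55 TPM of Atp2b2 and the 3 females 16.49 to 19.89 TPM. This split by sex was not tested, and its share over all genes was not counted.

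The ratio of Atp2b1 to Atp2b2 was 2.54 ± 0.270 in the young WT group and 2.42 ± 0.322 in the young hAβ-KI group, against 2.31 ± 0.201 for old WT and 1.94 ± 0.462 for old hAβ-KI mice (SD, n = 7, 8, 8 and 6). In the old hAβ-KI group, mouse 2 had a ratio of 1.02 and the other 5 mice had 1.93 to 2.27, inside the range of 1.93 to 2.97 of the remaining mice.

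**Figure D2:**
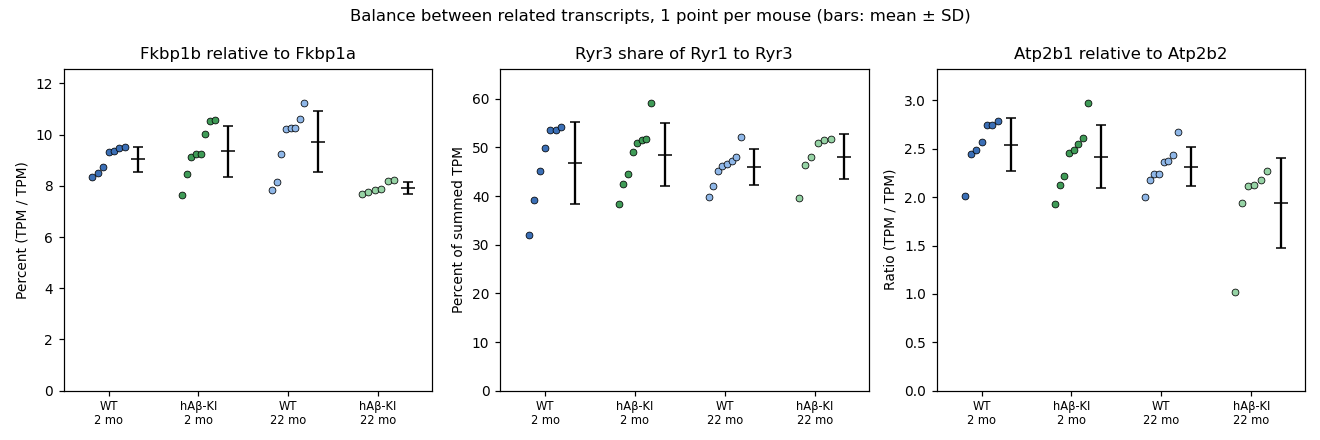
Fkbp1b as a percent of Fkbp1a, Ryr3 as a percent of the summed ryanodine receptor TPM, and the ratio of Atp2b1 to Atp2b2 (vertical axes, from 0) in each mouse by genotype and age, with bars for the mean ± SD. Fkbp1b lies between 7.69% and 8.24% of Fkbp1a in old hAβ-KI mice, and 1 old hAβ-KI mouse has an Atp2b1 to Atp2b2 ratio of 1.02.

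Over all members, the tests called few genes. Between genotypes at 2 months, 0 of the 9 members passed by limma, where 0.0386% of all genes tested did, and 2 of the 9, Fkbp1a and Atp2b1, had an unadjusted p below 0.05, where 6.69% of all genes did. At 22 months Fkbp1b and Atp2b1 are not counted, since this contrast chose them. Of the 7 members other than these, 0 passed by limma at that age, beside 0.495% of all genes. Of the same 7, 0 had an unadjusted p below 0.05, where 10.2% of all genes did. With age in WT mice, 1 of these 7 passed, which was Fkbp1a, beside 5% of all genes. With age in hAβ-KI mice, Fkbp1a again was the only one of these 7, beside 9.18% of all genes. The interaction of genotype and age was passed by 0 of the same 7 in limma, beside 0.00643% of all genes, and 0 of the 7 had an unadjusted p below 0.05, where 6.86% of all genes did. Estimates below 0 were found for 8 of 9 members at 2 months, where 64.6% of all genes had one, and at 22 months for 6 of the 7 members that this contrast did not choose, where 54.2% did. In none of the 4 comparisons were the groups of any member free of overlap, where 0.0707% (genotype at 2 months), 0.328% (genotype at 22 months), 0.887% (age in WT) and 1.64% (age in hAβ-KI) of all genes were.

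**Figure D3:**
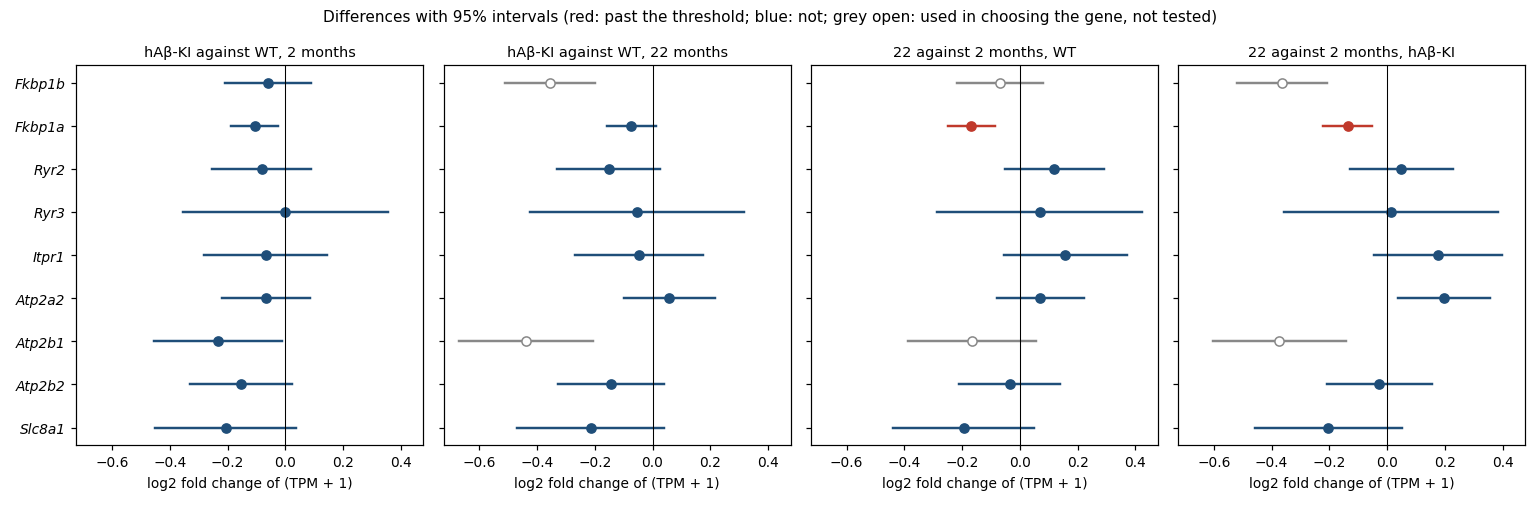
Differences on the log2(TPM + 1) scale (horizontal axis) with 95% intervals for the 9 members tested (vertical axis) in 4 comparisons, with red for those past the threshold, blue for those not and open grey for Fkbp1b and Atp2b1 where the choice of genes used the mice. Fkbp1b and Atp2b1 at 22 months have estimates of -0.35 and -0.44, and Fkbp1a is past the threshold with age in both genotypes.

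Between mice of the same group, the channels, pumps and exchanger varied together, while the r of the calstabins with them had medians near 0. Pearson's r of log2(TPM + 1) over 29 mice, after the group means were removed, had a median of 0.55 over the 28 pairs of the 8 channel, pump and exchanger genes (range 0.09 to 0.76). It was highest for Ryr2 with Itpr1, at 0.76, and for Ryr2 with Atp2b2, at 0.75. Fkbp1b had a median r of 0.07 with these 8 genes (range -0.19 to 0.33) and Fkbp1a one of 0.02 (range -0.29 to 0.26). Fkbp1b with Fkbp1a had 0.40. All points share library and depth within a mouse, and the genes also differ in transcript length. The 8 channel, pump and exchanger genes have coding transcripts of 4486 to 18464 bases, and those of Fkbp1b and Fkbp1a have 976 and 1658 bases.

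A transcript length index of each library, the level of 769 genes with transcripts of at least 8000 bases against 3658 genes with transcripts of at most 2000 bases, had an r of 0.46 to 0.84 with the 8 long genes. With Fkbp1b it had an r of 0.01 and with Fkbp1a -0.25. The index overlapped between the groups, with medians from -0.04 in young hAβ-KI to 0.04 in old WT mice. Among old hAβ-KI mice it ran from 0.06 to 0.13 in the males and from -0.12 to -0.04 in the females. The split by sex of Atp2a2 and Atp2b2 in that group cannot be told apart from it. With the index as a covariate, the difference between genotypes at 22 months was -0.35 for Fkbp1b and -0.41 for Atp2b1, and that at 2 months was -0.17 for Atp2b1.

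**Figure D4:**
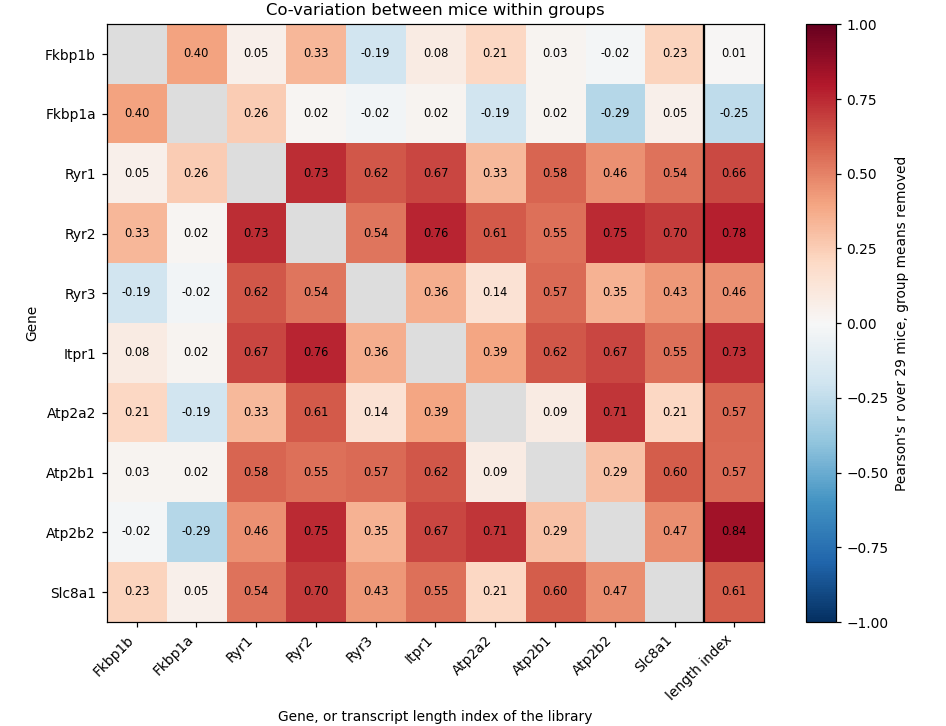
Pearson's r of log2(TPM + 1) between the 10 genes (both axes) over 29 mice after removal of the group means, with the r of each gene with the transcript length index of the library in the last column. Ryr2 with Itpr1 has an r of 0.76 and Atp2b2 an r of 0.84 with the index, while Fkbp1b has 0.01.

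The genes whose variation within groups was most like that of Fkbp1b were Slc26a4 (r = 0.77 over 29 mice), Tmem151a (0.75), Gfra4 (0.74), Ppp2r5d (0.74) and Map2k4 (0.74). Their differences between genotypes at 22 months were -0.05 (SE 0.09), -0.12 (SE 0.05), -0.14 (SE 0.07), -0.01 (SE 0.06) and -0.02 (SE 0.05) in the same order, beside -0.35 for Fkbp1b. Most like Atp2b1 were Specc1 (r = 0.86), Cnksr2 (0.85), Gria1 (0.84), Gria2 (0.84) and Itsn2 (0.84), of which Gria1 and Gria2 encode AMPA receptor subunits. These r values include mouse 2 of the old hAβ-KI group, the lowest of all mice in Atp2b1. Cnksr2, a scaffold of the synapse, had a difference between genotypes at 22 months of -0.31 (SE 0.08). The difference was -0.19 (SE 0.07) for Gria1, -0.15 (SE 0.08) for Gria2, -0.10 (SE 0.09) for Itsn2 and -0.05 (SE 0.10) for Specc1.

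The wider calcium machinery was read from 13 lists with 148 genes, of which 135 were tested. Between genotypes at 2 months 0 of the 135 passed by limma, beside 0.0386% of all genes, and 16 had an unadjusted p below 0.05, beside 6.69% of all genes. At 22 months 1 of 133 passed besides Fkbp1b and Atp2b1, or 0.752% beside 0.495% of all genes, which was Camk1d, a calcium and calmodulin dependent kinase. Camk1d had 15.18 to 18.38 TPM in old hAβ-KI (median 16.59) and 18.32 to 24.53 TPM in old WT mice (median 23.225), so that the groups touched at 1 mouse of each. It fell by 0.41 on the log2 scale (SE 0.08, limma, adjusted p = 0.0218), and without mouse 2 of the old hAβ-KI group the difference was -0.41 (SE 0.09, adjusted p = 0.0350). The median difference of the 133 genes was -0.01, equal at this rounding to that of all genes tested. Of the 133, 21 had an unadjusted p below 0.05, where 10.2% of all genes did. The summed hippocampal neuron type markers had a median of 460.88 TPM in old hAβ-KI and 499.75 TPM in old WT mice, and their part in these differences was not tested.

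Of 12 other FKBP genes tested, 0 passed by limma in any of the 5 contrasts, and 1 had an unadjusted p below 0.05 between genotypes at 22 months, where 10.2% of all genes did. Among the alternatives, Fkbp3 passed between genotypes at 22 months after quantile normalization (0.22, adjusted p = 0.0782), Fkbp4 with age in WT with the choroid plexus score (-0.13, adjusted p = 0.0944) and Fkbp5 with age in hAβ-KI without mouse 2 of the old hAβ-KI group (0.34, adjusted p = 0.0906), and these 3 are named after their values were seen. Of the 16 tested partners of the ryanodine receptor, among them the calmodulin genes, Homer1 and the junctophilins, 0 passed by limma at 22 months besides Fkbp1b, which was chosen by this contrast and is no result of it. Of the 16, 4 had an unadjusted p below 0.05, where 10.2% of all genes did, but the choice of genes fixed Fkbp1b as 1 of them. This count is therefore a description and no result on the partners. The 4 tested release channels, the 6 store pumps and the 8 sodium-calcium exchangers had 0 genes past it at that age by limma. Their medians were -0.05, -0.03 and -0.11, beside -0.01 for all genes tested, and 0, 0 and 2 of them had an unadjusted p below 0.05, beside 10.2% of all genes.

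With age in WT mice, 9 of 133 genes passed besides Fkbp1b and Atp2b1, or 6.77%, beside 5% of all genes. Of these 1 was higher and 8 were lower, beside 1.93% and 3.07% of all genes. This split depended on the normalization. After quantile normalization 5 list genes passed, with Smdt1, S100b and S100a1 higher and Pcp4 and Fkbp1a lower. S100b, a calcium-binding protein of astrocytes, rose by 0.38 (SE 0.06, limma, adjusted p = 0.000257), with 89.7 ± 4.16 TPM in the 7 young and 117 ± 12.6 TPM in the 8 old mice. The summed astrocyte markers went from 514.26 to 614.28 TPM in young WT to 599.8 to 849.06 TPM in old WT mice, and their part in this was not tested. The 8 genes that fell were the calretinin gene Calb2 (-0.42), the calmodulin regulator Pcp4 (-0.34), the kinase Camkk2 (-0.29), the channel Trpc4 (-0.26), the mitochondrial uniporter Mcu (-0.22), Fkbp1a (-0.17), the mitochondrial porin Vdac3 (-0.12) and the calmodulin gene Calm2 (-0.11), with adjusted p values from 0.0185 to 0.0862. Other genes held 18.4% of the 43-base stretches of Pcp4, 13.2% of those of Vdac3 and 12.3% of those of Calm2, so that their levels are less certain.

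With age in hAβ-KI mice, 17 of 133 genes passed besides Fkbp1b and Atp2b1, or 12.8%, beside 9.18% of all genes. Of these 5 were higher and 12 lower, beside 3.86% and 5.32% of all genes. By size of the difference the first among them were S100b (0.57), the alpha2delta subunit gene Cacna2d4 (-0.51), the inositol trisphosphate kinase Itpkb (0.43), the store-operated channel Orai2 (-0.41), the synaptic scaffold Homer1 (0.38), the protein kinase C gene Prkca (-0.35), the store lumen protein Rcn1 (0.35) and the Golgi calcium pump Atp2c1 (-0.31). Orai2 had 88.5 ± 16.8 TPM (SD, n = 6) in old and 116 ± 6.52 TPM (SD, n = 8) in young hAβ-KI mice, and Homer1 had 10.1 ± 1.34 and 7.51 ± 0.972 TPM. Cacna2d4 stayed at or below 2.08 TPM in every mouse. Without mouse 2 of the old hAβ-KI group, 10 of 19 list genes were past the threshold again, beside 1006 of 1428 over all genes. Fkbp1b is in both list counts and Atp2b1 in the 19, and neither is a result here. Cacna2d4 and Prkca were among the genes that did not pass again. Other genes held 17.6% of the 43-base stretches of Atp2c1.

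Of the 9 list genes past the threshold with age in WT and the 19 in hAβ-KI mice, 3 were shared, Fkbp1a, Calm2 and S100b, each in the same direction. These 3 were 33.3% of the former and 15.8% of the latter, which counts Fkbp1b and Atp2b1. The same overlap over all genes was not counted, so that these shares are a description and no result on the calcium genes. Without mouse 2 of the old hAβ-KI group, 1 was shared, S100b, of 11 and 16 genes, with Fkbp1b among the 16. Of the 133 genes besides Fkbp1b and Atp2b1, 0 passed the interaction of genotype and age in limma, beside 0.00643% of all genes. An unadjusted p below 0.05 was found for 17 of the 133, beside 6.86% of all genes. A difference between the genotypes in the change with age was thus not shown for any of the 133.

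**Figure D5:**
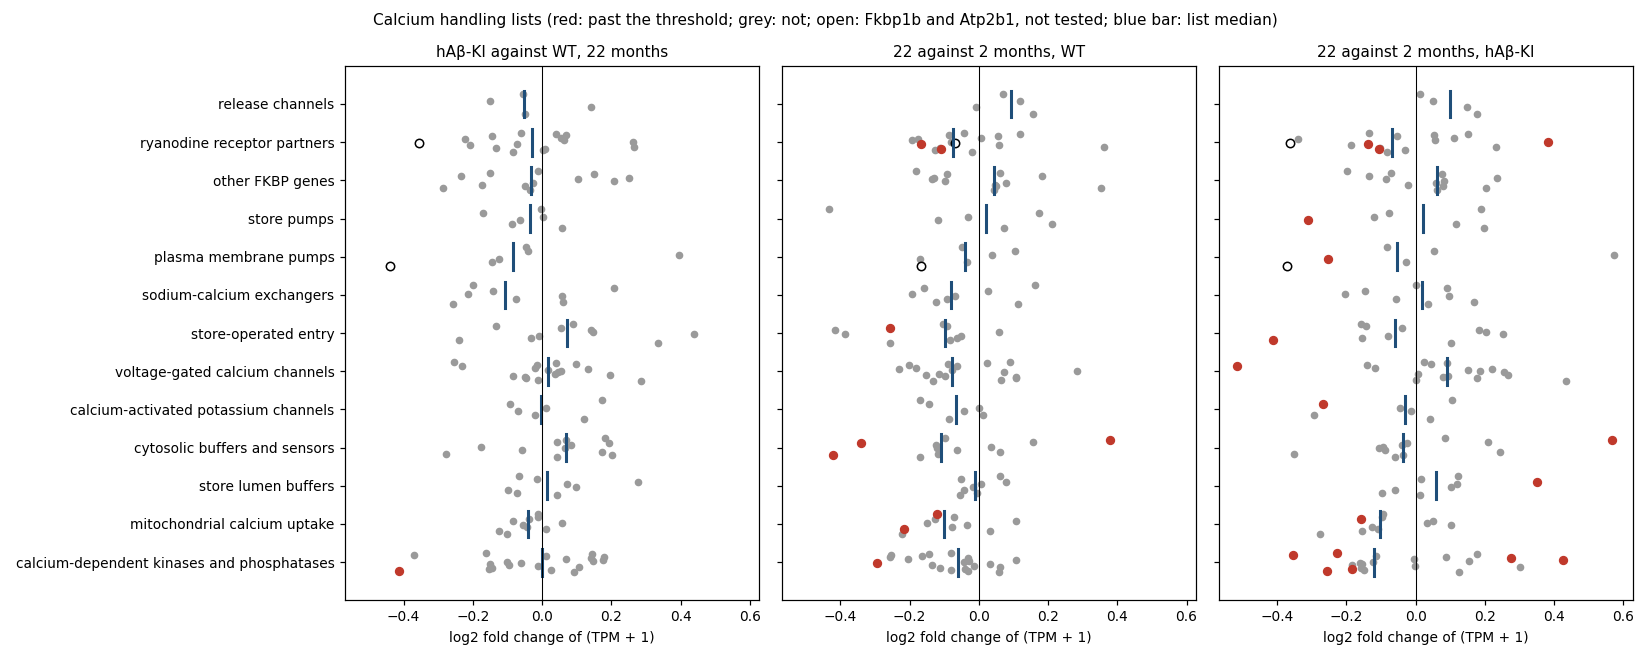
Differences on the log2(TPM + 1) scale (horizontal axis) of 135 calcium handling genes in 13 lists (vertical axis) in 3 comparisons, 1 point per gene, with red for genes past the threshold, open circles for Fkbp1b and Atp2b1, which were not tested there, and a bar for the median of each list. Camk1d, at -0.41, is the red point between genotypes at 22 months, while with age 9 genes in WT and 17 in hAβ-KI mice are red.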

How the data were processed

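RNA from the hippocampus of 29 mice was made into Smart-seq2 and Nextera libraries, which do not keep strand, and sequenced as paired reads of 43 bases. Only RNA with an integrity number of at least 8 was used. Alignment to GRCm38 was done by the authors with STAR 2.5.1b, and RSEM 1.2.22 with the Gencode vM8 annotation gave the deposited TPM, which cover protein-coding genes and lncRNA genes. The TPM hold no read counts, so that depth per mouse is unknown here and the precision given is the spread between mice. The TPM of a mouse summed to 717535 to 816940, because other gene classes were left out.

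The 15554 genes that reached a TPM of 1 in 2 or more mice were tested as log2(TPM + 1) in limma 3.58.1 (R 4.3.3; lmFit, then eBayes with trend) in 1 model of the 4 groups with 5 contrasts, two-sided. The authors' edgeR test needs counts and was not used. The pseudocount of 1 understates the fold changes of low genes. Groups, ages and sexes are those of the labels, and the mice of a group are numbered in the order of deposit. The limma script was tested on simulated data. Intervals cover 95%.

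The members and gene lists were chosen with earlier results of these data known. Genes named are the 10 members, the list genes past the threshold in each contrast (the 10 with the largest change where there were more) and the 5 most correlated within groups with Fkbp1b and with Atp2b1. Positions and sequences are from GENCODE M21 on GRCm38, the authors' build with a later annotation. Shared 43-base stretches were counted on both strands. Alternatives were another pseudocount, 2 other filters, quantile normalization, rescaling to nuclear protein-coding genes, a fit restricted to the groups compared, sex or a choroid plexus score as a covariate, eBayes without a trend, mice sharing a name number treated as correlated, each mouse left out, and, chosen after seeing the data, a transcript length index as a covariate. Python 3.11.15 with numpy 2.4.6, pandas 2.3.3 and matplotlib 3.10.9 did the remaining steps.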

Additional observations from a re-analysis of the deposited data

Results flagged for a closer look

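In the old hAβ-KI group, Itpr1 in mouse 3 was 17.57 TPM and stood apart from the other 5 mice, the highest of which had 15.12 TPM. The gap was 0.677 of the range of the group, above Dixon's 95% critical value of 0.625 for 6 mice. It was the only such value among 40 combinations of member and group, where chance gives about 1 in 20.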

How the results depend on the processing

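No paired analysis was possible because the labels give no replicate numbers that pair mice across the groups. The precision rests on 6 to 8 mice a group, and depth could not be read from TPM. Of the differences of members under the alternatives and with each mouse left out, 1196 were counted as unchanged, 69 changed sign, 2 lost and 2 gained the call. Unchanged meant the same direction and side of the threshold. For Fkbp1b and Atp2b1, beyond the contrast at 2 months, it meant an estimate moved by less than the residual SD of the gene, whatever the call. The difference of Fkbp1b between genotypes at 22 months stayed between -0.40 and -0.33 and that of Atp2b1 between -0.49 and -0.33. The cause of the changes below was not tested, except where a fit restricted to the groups compared holds fewer mice.

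Genes past the threshold between genotypes at 22 months numbered 77, but 40 in a fit restricted to the groups compared, 48 by eBayes without a trend and 49 with mice sharing a name number correlated. Leaving out a mouse of the groups compared gave 30 (mouse 5 of old hAβ-KI) to 143 (mouse 2 of old hAβ-KI), 6 to 11 for genotype at 2 months, 508 (mouse 7 of old WT) to 750 for age in WT, 906 (mouse 4 of old hAβ-KI) to 1527 for age in hAβ-KI, and 0 to 3 for the interaction. Age in WT gave 976 genes without mouse 2 of old hAβ-KI, which is in neither group compared but shares the estimate of the spread. The interaction had 1 gene, but 0 with a pseudocount of 0.1, no filter, quantile normalization, rescaling, sex, the choroid plexus score, no trend or correlated mice, and 3 with the transcript length index. Calcium list genes called are counted here with Fkbp1b and Atp2b1 among them where these were past the threshold. They numbered 2 between genotypes at 22 months, Camk1d and Fkbp1b, but 1, Camk1d, in a fit restricted to the groups compared. With the length index they numbered 4, Camk1d, Homer1, Fkbp1b and Atp2b1. Fkbp1b and Atp2b1 were chosen by this contrast, so that their part in these counts is no result. With age in WT they numbered 9, but 5 after quantile normalization. Leaving out a mouse of the groups compared gave 1 to 3 and 4 to 10 of them, and 12 to 26, in place of 19, with age in hAβ-KI. Without mouse 2 of old hAβ-KI, 11 were called with age in WT. Of the genes called with age in WT, 38.6% were higher, but 62.7% after quantile normalization and 57.3% after rescaling, and of those between genotypes at 22 months 29.9%, but 41.4% after rescaling.

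Atp2a2 passed with age in hAβ-KI after quantile normalization (adjusted p = 0.0865). The members that changed sign had estimates near 0. Between genotypes at 2 months these were Ryr3 with sex as a covariate (-0.00022) and Itpr1 with the length index (0.011). With age in WT it was Atp2b2 after quantile normalization (0.0037). With age in hAβ-KI, Ryr2 was -0.0055 after quantile normalization and -0.0081 with the length index, and Ryr3 -0.036 and -0.064. In the interaction, quantile normalization gave -0.0062 for Fkbp1a, -0.018 for Itpr1 and -0.015 for Atp2b2, sex as a covariate -0.016 for Itpr1, rescaling -0.0043 for Atp2b2, the length index -0.025 for Itpr1 and -0.033 for Atp2b2, and the choroid plexus score 0.0035 for Slc8a1.

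With a mouse left out, the ranges that crossed 0 were -0.122 to 0.0084 for Itpr1 and -0.151 to 0.088 for Ryr3 between genotypes at 2 months, and -0.141 to 0.032 for Ryr3 at 22 months. With age in WT they were -0.070 to 0.0032 for Atp2b2 and -0.083 to 0.156 for Ryr3, and with age in hAβ-KI -0.088 to 0.032 for Atp2b2, -0.0031 to 0.088 for Ryr2 and -0.072 to 0.10 for Ryr3. In the interaction they were -0.053 to 0.067 for Atp2b2, -0.057 to 0.074 for Itpr1, -0.144 to 0.096 for Ryr3 and -0.058 to 0.073 for Slc8a1. The other alternatives changed no further sign of a member.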
